A study of Rattus norvegicus with 27 samples.

Results

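The genes described here encode the machinery that forms small extracellular vesicles and brings them to the cell surface. They were chosen by name, as 40 genes of the tetraspanin, ESCRT, Rab, ceramide, syndecan-syntenin, membrane domain and SNARE routes, and 38 of them matched rows among the 17315 genes of the cell mRNA table. *Chmp2b* and *Chmp4b* did not match a row by name, so their mRNA was not analysed here. Of the 38, 35 held enough reads to be tested, and *Rab27b*, *Smpd3* and *Cav1* did not. The cells were purchased primary rat Schwann cells, the glia that wrap the axons of peripheral nerves, sampled at 3 stages with 3 libraries each. Undifferentiated cells were kept without dbcAMP (dibutyryl cyclic AMP), which enters cells and acts like the second messenger cyclic AMP, and the labels do not state their medium further. For differentiation dbcAMP was given at 1 mM over 72 h in DMEM with 1% exosome-depleted serum. For dedifferentiation the same treatment was followed by 72 h without dbcAMP in complete medium with 10% exosome-depleted serum, neuregulin and forskolin, an activator of adenylyl cyclase. In what follows, without dbcAMP, under dbcAMP and after withdrawal stand for the 3 stages. Stage, serum and growth factors therefore changed together and cannot be told apart. The titles call the replicates biological but do not say that they came from separate cultures, so p-values measure the spread between these libraries.

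Small vesicles of the exosome type form when the membrane of a late endosome buds inwards, and they are set free when that endosome fuses with the plasma membrane. In the ESCRT route, ESCRT-0, -I and -II sort ubiquitinated cargo, ESCRT-III filaments cut the bud neck, and the ATPase Vps4 takes the filaments apart. Alix with syntenin and syndecans, ceramide made by neutral sphingomyelinase, and tetraspanins provide partly separate routes, while Rab GTPases steer the endosomes to recycling, the lysosome or the surface. Many of these proteins also act elsewhere, such as in cell division, receptor degradation and membrane repair, and their mRNA level is not a measure of vesicle output.

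Libraries held 10058735 to 16212278 estimated counts, and a count of 3 corresponded to 0.185 to 0.298 CPM (counts per 1000000 counts of the column total). The Schwann cell genes *S100b*, *Sox10*, *Erbb3*, *Cdh19* and *Ngfr* were all above that floor in every library, but they moved with stage. On differentiation *S100b* and *Erbb3* rose (log2 change 0.87 and 0.58; edgeR adjusted p = 7.07e-05 and 9.89e-05). *Cdh19* and *Ngfr* fell (log2 change -2.34 and -2.01; edgeR adjusted p = 4.74e-07 and 8.05e-07). *Sox10*, the transcription factor that defines the lineage, measured 1252 to 1480, 964 to 1110.4 and 1325 to 1539 CPM over the 3 stages. Its fall on differentiation was called (log2 change -0.42; edgeR adjusted p = 0.00665). *Egr2*, a transcription factor of myelination, measured 1.37 to 14.0 CPM without dbcAMP, 647 to 800.3 under dbcAMP and 103 to 176 after withdrawal. *Jun*, a transcription factor of repair cells, measured 1934 to 2770, 201 to 267 and 1858 to 2185 CPM. The summed fibroblast list moved with stage, at 24504 to 29181, 12601 to 16391 and 16247 to 19672 CPM, and 4 of its 7 genes were above the floor in every library of each stage. Most of that sum was *Col1a1* and *Col1a2*. *Pdgfrb* of the same list went the other way, at 117 to 149, 538 to 806 and 312 to 333 CPM (log2 change 2.25 on differentiation; edgeR adjusted p = 2.06e-07). *Lum* was at 0 in every library, and the fibroblast genes *Pdgfra* and *Dcn* reached at most 0.884 and *Thy1* at most 1.92 CPM. Summed endothelial and leukocyte genes reached at most 8.26 and 5.17 CPM. The neuron list, led by *Nefl*, summed to 119 to 306, 979 to 1335 and 225 to 312 CPM. *Tubb3* of that list went the other way, at 45.0 to 74.5, 34.8 to 41.7 and 41.5 to 57.6 CPM (log2 change -0.66 on differentiation; edgeR adjusted p = 0.0141). *Rbfox3* and *Snap25* reached at most 0.0772 and 0.192 CPM. The part of the fibroblast and neuron lists in the member values was not tested. In bulk RNA, fewer cells of a type and less RNA per cell cannot be told apart.

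Under dbcAMP most of the vesicle genes that passed the test fell, among them genes from ESCRT-0 to ESCRT-III, the flotillins, *Cd82* and *Pld2*, whereas *Cd9*, *Cd81*, *Sdc4*, *Rab11a* and *Chmp5* rose. A gene is called here at an edgeR adjusted p under 0.05. Of the 35 tested members, 23 (65.7%) were called between differentiated and undifferentiated cells, where 59.6% of all 10372 tested genes were called, so the number called was close to the background. The directions were split differently: 5 members (14.3%) were higher and 18 (51.4%) lower, against 31.7% and 27.9% of all tested genes. The median log2 change was -0.28 over the members and 0.05 over all tested genes. Most member changes were small. A change of at least 1 in log2 units was called for 5 of the 35, against 24.8% of all genes. The stages had no overlapping libraries for 24 members (68.6%), and for 66.3% of all genes.

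After withdrawal 13 of the 18 members that fell were called higher, against 67.0% of all genes that fell. Of the 5 that rose, 2 were called lower, against 59.6% of all genes that rose. Between dedifferentiated and differentiated cells 17 members (48.6%) were called, against 46.4% of all genes, with 15 (42.9%) higher and 2 (5.71%) lower, where 23.2% of all genes were called in each direction. The median log2 change was 0.22, and -0.01 over all tested genes. Changes of at least 1 in log2 units were called for 4 members, against 15.6% of all genes, and libraries did not overlap for 19 (54.3%), against 58.5%. Between dedifferentiated and undifferentiated cells 10 members (28.6%) were called, against 29.4% of all genes, with 5 (14.3%) higher and 5 lower, against 16.1% and 13.3%. The median log2 change there was -0.03, and 0.02 over all tested genes. Only *Cd9* was called with a change of at least 1, against 9.56% of all genes, and libraries did not overlap for 13 members (37.1%), against 43.9%. The 3 comparisons share libraries, so their values are given side by side.

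Replicates 1 and 2 of every stage came from sequencing project 9987 and replicate 3 from project 11026. Within project 9987 alone 12 members were called on differentiation, namely *Cd9*, *Cd81* and *Sdc4* higher and *Cd82*, *Hgs*, *Tsg101*, *Chmp1a*, *Chmp4c*, *Arf6*, *Pld2*, *Flot1* and *Flot2* lower. Except for *Tsg101*, *Chmp1a* and *Arf6*, these genes were also the 9 called there on withdrawal. *Cd9*, *Chmp4c*, *Arf6* and *Pld2* were the 4 called there between dedifferentiated and undifferentiated cells. Of all genes tested in that fit 42.0%, 25.1% and 12.4% were called in the 3 comparisons. Project 11026 holds 1 library a stage and allows no test of its own.

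**Figure D1:**
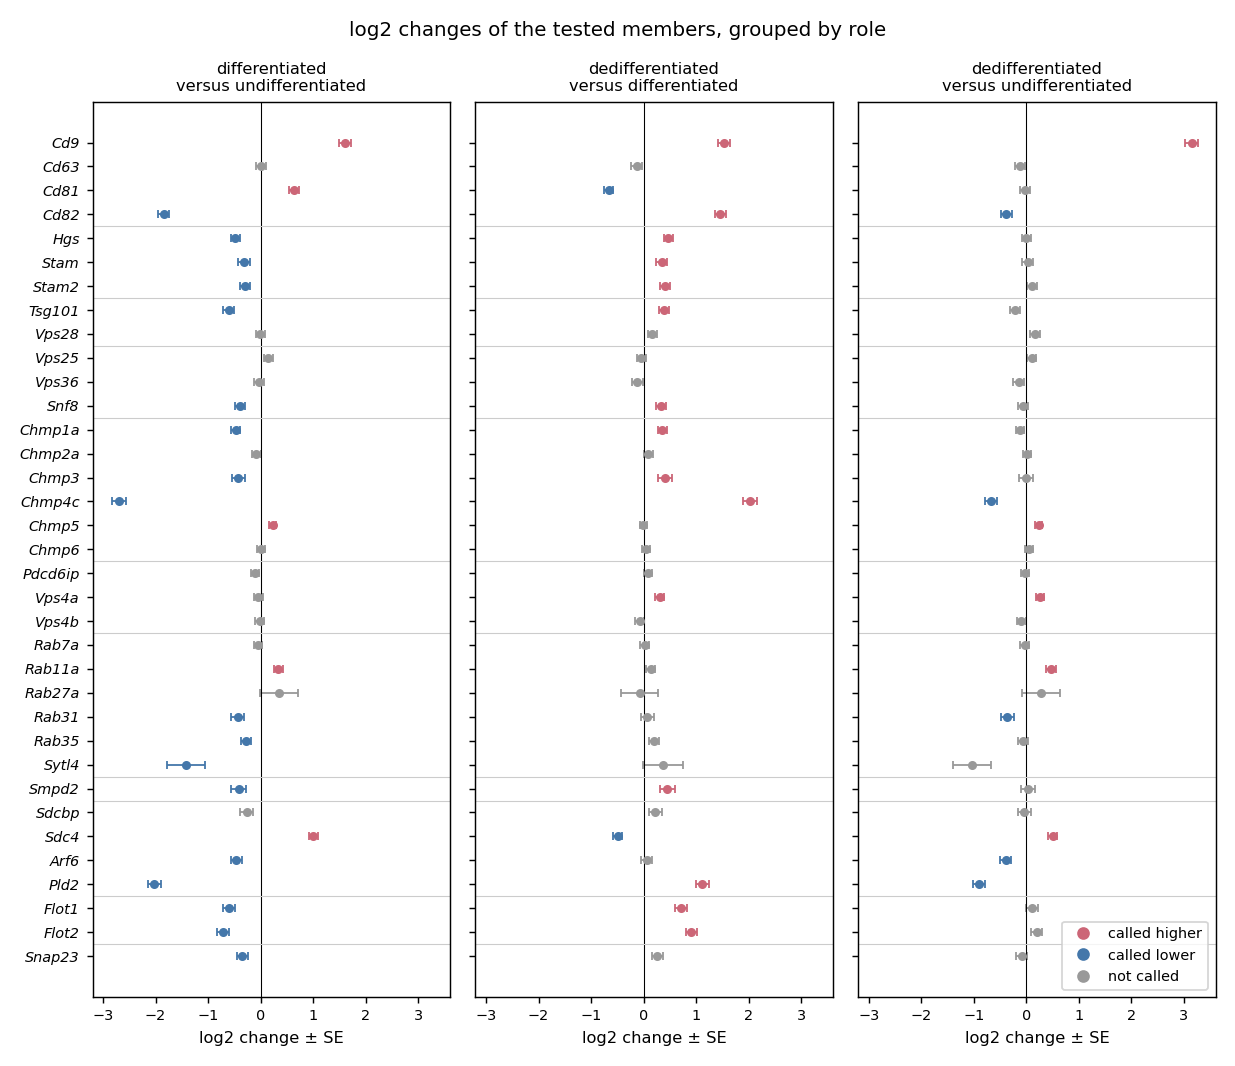
Fitted log2 change (x axis, with its standard error as the bar) of each of the 35 tested members (y axis, grouped by role between grey lines) in the 3 comparisons. Red points are called higher, blue lower and grey not called; 18 members are blue in the first panel and 15 are red in the middle panel.

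Over the 3 comparisons, 11 members were not called in any, namely *Cd63*, *Vps28*, *Vps25*, *Vps36*, *Chmp2a*, *Chmp6*, *Pdcd6ip*, *Vps4b*, *Rab7a*, *Rab27a* and *Sdcbp*. Another 10 fell on differentiation, rose on withdrawal and were then not called against undifferentiated cells, namely *Hgs*, *Stam*, *Stam2*, *Tsg101*, *Snf8*, *Chmp1a*, *Chmp3*, *Smpd2*, *Flot1* and *Flot2*. *Cd82*, *Chmp4c* and *Pld2* fell and rose in the same way but remained below undifferentiated cells. *Cd9* alone among the members was called higher at both steps. These patterns were not counted over all tested genes, of which 59.6%, 46.4% and 29.4% were called in the 3 comparisons. Of the 18 members that fell on differentiation, 13 were called higher on withdrawal, and the median member kept 22.9% of its log2 change. Among all 2893 genes that fell, 67.0% were called higher on withdrawal and the median kept was 32.1%. Of the 5 members that rose, 2 were called lower on withdrawal and 4 were still called above undifferentiated cells, with a median of 99.3% of the log2 change kept. That median is the value of *Chmp5* alone, and the members spread widely. *Cd81* kept -5.20%, *Sdc4* 50.4%, *Rab11a* 140% and *Cd9* 195%. Among all 3286 genes that rose, 59.6% were called lower on withdrawal and the median kept was 42.1%.

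**Figure D2:**
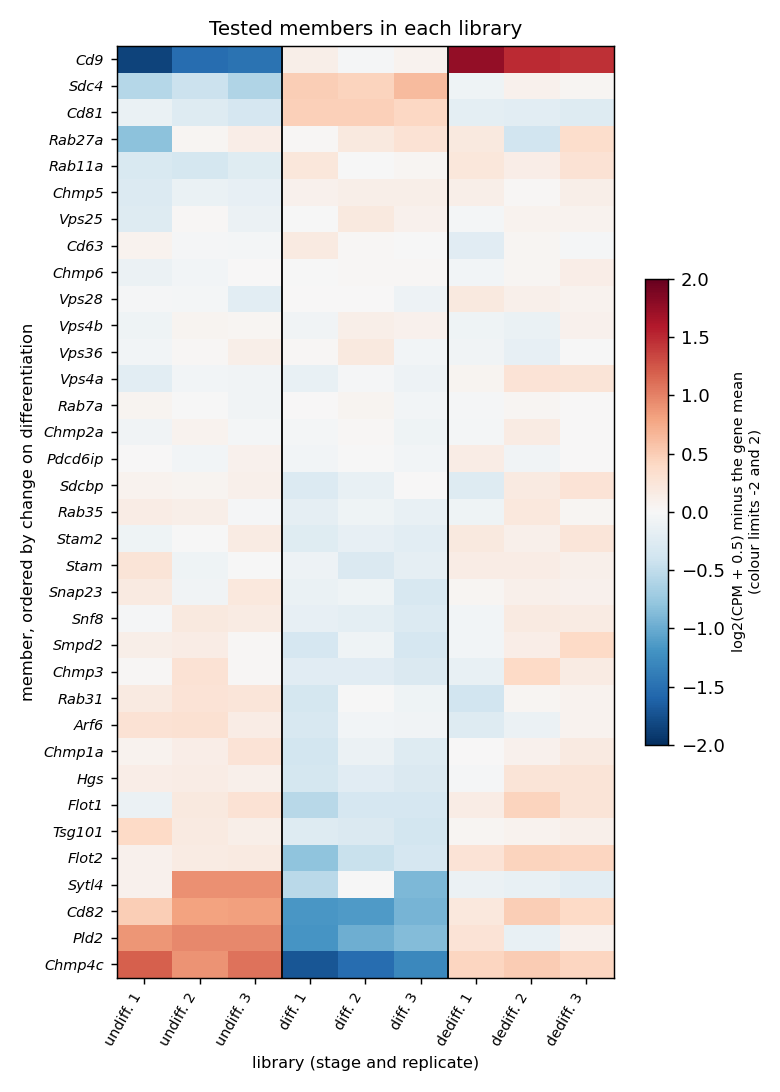
Each cell of the map is log2(CPM + 0.5) of a tested member (y axis, ordered by its change on differentiation) in a library (x axis, stage and replicate), minus the mean of that gene over the 9 libraries. *Cd9* at the top steps up at each stage, and *Cd82*, *Pld2* and *Chmp4c* at the bottom are lowest in the 3 differentiated libraries.

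To place the members' changes beside their sequence, the 250 bases before the RefSeq gene start were searched in assembly GRCr8 for binding sequences of factors tied to cyclic AMP, to *Jun* and to lysosome genes. The table of promoters held 34 of the 40 members. These included *Chmp2b*, *Chmp4b*, *Rab27b* and *Cav1*, whose mRNA was not tested. *Cd82*, *Vps28*, *Chmp4c*, *Chmp6*, *Smpd3* and *Sdcbp* were absent. The windows of *Cd82* and *Chmp4c*, which had large changes on differentiation, were therefore not searched. *Chmp4b* is among the members with a half-site below, and *Rab27b* among those with an AP-1 site. The motifs, searched on both strands, were the half-site of the cyclic AMP response element (CRE; TGACG), the full element (TGACGTCA, which holds the half-site on each strand), the AP-1 site (TGACTCA) and the E-box CACGTG. A half-site was found before 11 of the 34 members (32.4%), before 29.8% of the 7956 tested genes with a promoter, and before 18.2% of all 33469 promoters. The full element was found before *Chmp2a* alone, against 3.18% and 1.59%. The AP-1 site was found before 2 members (5.88%), against 2.98% and 4.05%, and the E-box before 3 (8.82%), against 8.30% and 5.59%. These shares are descriptions of letters in a window and not of binding.

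Promoters of 4 members are printed 5′ to 3′ on the gene's strand, to set 2 members with large changes beside 2 with a full element or several matches. They are those of *Cd9* (chr4:159975359-159975608, minus strand), *Pld2* (chr10:55754746-55754995, plus strand), *Chmp2a* (chr1:82734745-82734994, minus strand) and *Cd63* (chr7:1921894-1922143, plus strand), with the matches in capitals.
Cd9: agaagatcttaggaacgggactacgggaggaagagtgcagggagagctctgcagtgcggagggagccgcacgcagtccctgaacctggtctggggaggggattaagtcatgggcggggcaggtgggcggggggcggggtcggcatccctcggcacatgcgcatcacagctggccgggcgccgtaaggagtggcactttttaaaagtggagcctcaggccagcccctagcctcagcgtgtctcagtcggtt
Pld2: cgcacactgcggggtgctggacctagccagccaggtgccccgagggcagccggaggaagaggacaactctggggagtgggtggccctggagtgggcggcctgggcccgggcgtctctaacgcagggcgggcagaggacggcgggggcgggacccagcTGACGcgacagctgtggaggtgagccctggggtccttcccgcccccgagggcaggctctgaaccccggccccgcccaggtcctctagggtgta
Chmp2a: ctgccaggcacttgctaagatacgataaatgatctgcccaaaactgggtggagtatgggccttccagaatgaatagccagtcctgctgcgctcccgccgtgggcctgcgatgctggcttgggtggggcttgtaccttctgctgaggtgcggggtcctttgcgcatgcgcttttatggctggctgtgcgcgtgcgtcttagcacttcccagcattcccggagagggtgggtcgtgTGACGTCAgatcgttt
Cd63: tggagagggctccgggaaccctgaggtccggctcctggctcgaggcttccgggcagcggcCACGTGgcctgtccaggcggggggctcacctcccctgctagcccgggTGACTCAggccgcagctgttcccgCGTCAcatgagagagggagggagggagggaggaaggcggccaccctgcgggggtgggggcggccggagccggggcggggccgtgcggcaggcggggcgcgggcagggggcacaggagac
The window of *Cd9*, which rose at both steps, held none of the motifs. That of *Pld2*, which fell on differentiation, held a half-site whose first base lay 93 bases before the start. *Chmp2a* carried the full element 16 bases before its start and was not called in any comparison. *Cd63*, also not called, held an E-box at 190, an AP-1 site at 143 and a half-site at 119 bases before its start.

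Tetraspanins, which organise membrane domains and mark the surface of small vesicles, went in different directions. *Cd9*, a tetraspanin of the plasma membrane that is also present in myelin, measured 58.3, 72.7 and 75.2 CPM in undifferentiated replicates 1, 2 and 3. It measured 228, 208 and 222 CPM under dbcAMP and 711, 593 and 581 CPM after withdrawal. The stages did not overlap, and the order was the same in every replicate. *Cd9* was 3.06-fold higher in differentiated than in undifferentiated cells (log2 change 1.61, SE 0.11; edgeR adjusted p = 6.77e-07). On withdrawal it was a further 2.89-fold higher (log2 change 1.53, SE 0.11; edgeR adjusted p = 2.53e-06), which put it 8.86-fold above undifferentiated cells (edgeR adjusted p = 1.31e-07).

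*Cd82*, a tetraspanin known as a suppressor of metastasis, measured 320.4, 401 and 402 CPM in undifferentiated cells. It measured 102, 104 and 119.9 CPM under dbcAMP and 266, 321 and 303 CPM after withdrawal. All differentiated libraries lay below all others, while the other stages overlapped. *Cd82* fell 3.6-fold on differentiation (log2 change -1.85, SE 0.11; edgeR adjusted p = 1.88e-07) and rose 2.76-fold on withdrawal (edgeR adjusted p = 2.68e-06). Its remaining deficit against undifferentiated cells was small (log2 change -0.39, SE 0.10; edgeR adjusted p = 0.0186). That last call was lost without undifferentiated replicate 2 or 3 (log2 change -0.35 in both; edgeR adjusted p = 0.0603 and 0.0624) and without dedifferentiated replicate 3 (-0.39; 0.0544).

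*Cd81*, which partners integrins and other receptors, measured 925, 848 and 797 CPM without dbcAMP, 1412, 1412 and 1340.2 under dbcAMP and 886, 874 and 841 after withdrawal. Only the differentiated libraries stood apart. It was 1.55-fold higher on differentiation (edgeR adjusted p = 0.000169) and fell 1.59-fold on withdrawal (edgeR adjusted p = 0.00022). *Cd63*, the tetraspanin of late endosomes and lysosomes, measured 1055, 981 and 973 CPM without dbcAMP, 1139, 1021 and 1001 under dbcAMP and 851, 1028 and 987 after withdrawal. Its stages overlapped in every comparison, and its log2 changes were 0.01, -0.13 and -0.12 (SE 0.10 each; edgeR adjusted p = 0.949, 0.324 and 0.415).

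**Figure D3:**
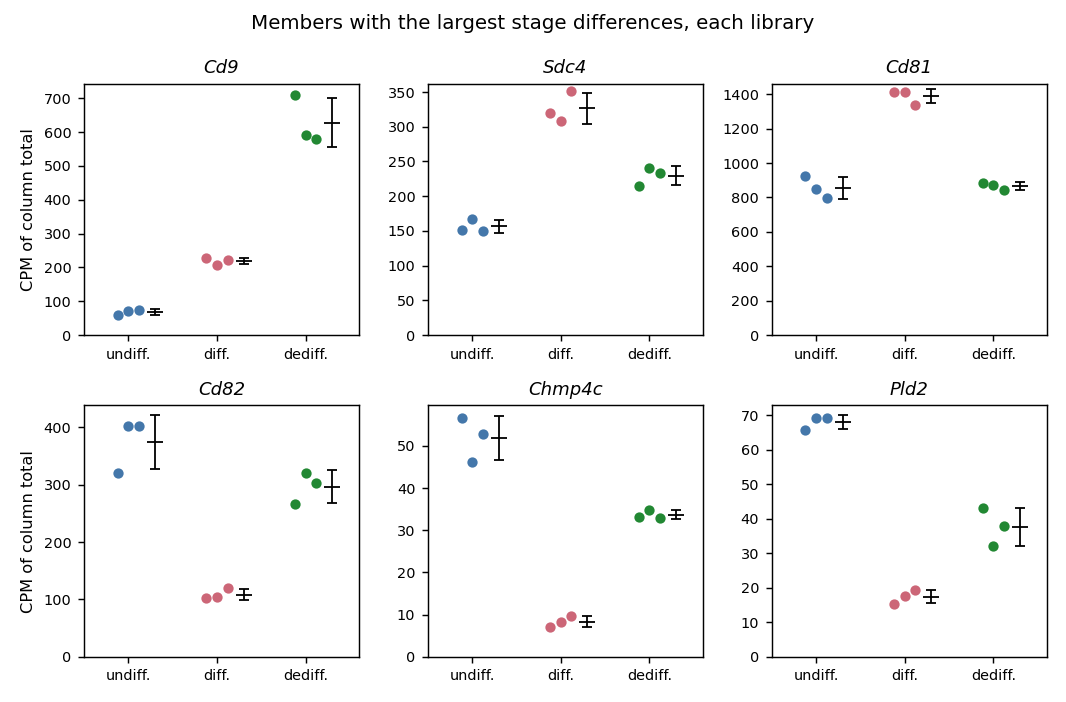
CPM of the column total (y axis, from 0) for 6 members in each library by stage (x axis). Coloured points are libraries in replicate order, and the black mark beside them is the mean with its SD (n = 3). *Cd9* climbs from 58.3 to 75.2 through 208 to 228 to 581 to 711 CPM, *Sdc4* and *Cd81* peak in differentiated cells, and *Cd82*, *Chmp4c* and *Pld2* are lowest there.

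Within a library, the ratio of 2 genes does not depend on how libraries are scaled. The log2 ratio of *Cd63* to *Cd9* was 3.88 ± 0.264 without dbcAMP, 2.26 ± 0.0787 under dbcAMP and 0.607 ± 0.30 after withdrawal (SD, n = 3). The last lay 3.27 below the first in log2 units (difference -3.27), a 9.64-fold lower ratio. For *Cd82* to *Cd81* the values were -1.20 ± 0.291, -3.68 ± 0.172 and -1.55 ± 0.161, so that the ratio was 5.59-fold lower in differentiated than in undifferentiated cells. The ratios *Stam* to *Stam2* and *Flot1* to *Flot2* overlapped between stages in every comparison. Over 5 pairs and 15 comparisons, 7 did not overlap, and each of these had a two-sided exact permutation p of 0.1, the smallest that 3 against 3 libraries allow (adjusted p = 0.214). This design cannot pass 0.05. The ratios come from the same counts as the changes of the single genes and are no separate evidence. Pairs with *Rab27b*, *Smpd3* and *Chmp2b* were planned but not computed.

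**Figure D4:**
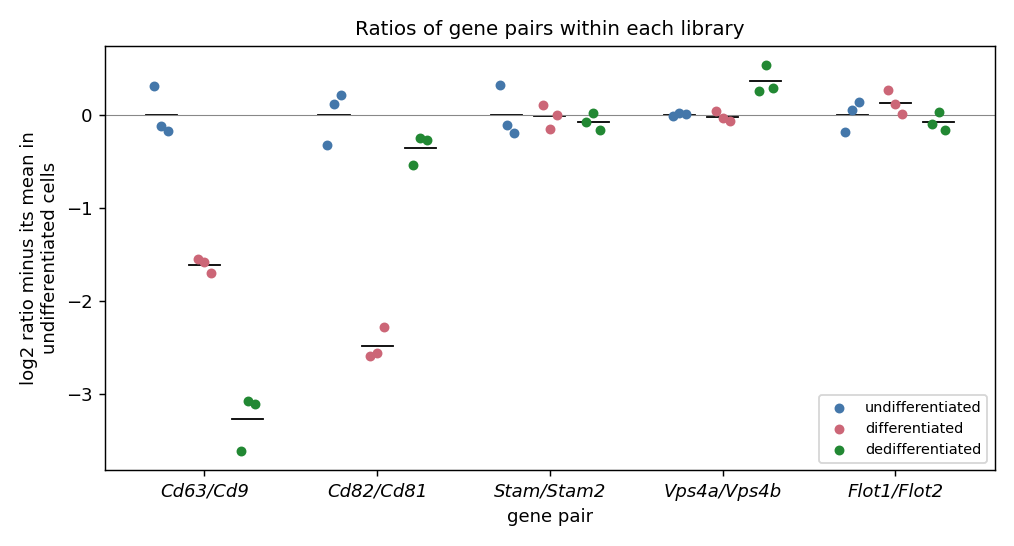
Log2 ratio of 2 genes within each library minus the mean of that ratio in undifferentiated cells (y axis) for 5 pairs (x axis). Points are libraries coloured by stage and black lines are stage means. *Cd63*/*Cd9* falls at both steps, by 1.61 and then by 1.66, while *Stam*/*Stam2* and *Flot1*/*Flot2* stay around 0.

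Of the 8 tested genes of ESCRT-0, -I and -II, 5 fell slightly on differentiation, and the same 5 rose on withdrawal. Over all tested genes, 59.6% were called on differentiation (27.9% lower) and 46.4% on withdrawal (23.2% higher). Of all genes that fell, 67.0% were called higher on withdrawal. All 3 tested ESCRT-0 genes, which bind ubiquitinated cargo on endosomes, were called in both comparisons. *Hgs* measured 159, 160.1 and 155 CPM without dbcAMP, 113, 124 and 118 under dbcAMP and 143, 172 and 173 after withdrawal. Differentiated libraries lay below all others, and the log2 changes were -0.48 (SE 0.09; edgeR adjusted p = 0.000692) and 0.47 (SE 0.09; edgeR adjusted p = 0.00126). Its partners *Stam* and *Stam2* fell by 0.32 and 0.30 in log2 units (edgeR adjusted p = 0.0258 and 0.0173) and rose by 0.34 and 0.40 (edgeR adjusted p = 0.0253 and 0.00493). These smaller calls depended on single libraries. The fall of *Stam* was lost without undifferentiated replicate 1 (log2 change -0.19) and without differentiated replicate 2 or 3 (-0.27 and -0.31). That of *Stam2* was lost without undifferentiated or differentiated replicate 3 (-0.25 and -0.29). The rise of *Stam* was lost without differentiated replicate 2 or 3 (0.29 and 0.34) and without dedifferentiated replicate 2 (0.34).

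*Tsg101*, the ESCRT-I subunit that binds cargo and Alix, measured 158, 136 and 129 CPM without dbcAMP, 99.4, 97.9 and 92.7 under dbcAMP and 124, 126 and 128 after withdrawal. The stages did not overlap. It fell by 0.61 in log2 units on differentiation (SE 0.10; edgeR adjusted p = 0.000275) and rose by 0.39 on withdrawal (edgeR adjusted p = 0.0071). Against undifferentiated cells it was not called (log2 change -0.22; edgeR adjusted p = 0.112), and it was called without undifferentiated replicate 3 (-0.30; 0.0497). The other ESCRT-I gene, *Vps28*, was not called in any comparison. Among ESCRT-II genes, which bridge ESCRT-I and ESCRT-III, *Snf8* fell by 0.39 (edgeR adjusted p = 0.00498) and rose by 0.32 in log2 units (edgeR adjusted p = 0.0179), while *Vps25* and *Vps36* had log2 changes between -0.15 and 0.15 with no call. The rise of *Snf8* was lost without differentiated replicate 3 (0.29) and without dedifferentiated replicate 2 or 3 (0.28 and 0.30).

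ESCRT-III genes, which encode the filament subunits that cut membrane necks, moved apart, with 1 of the 6 tested higher on differentiation, 3 lower and 2 not called. Over all tested genes 31.7% were called higher and 27.9% lower. *Chmp4c*, a subunit also known for its part in the abscission checkpoint of dividing cells, had the largest change of the 35 tested members on differentiation. It measured 56.6, 46.1 and 52.7 CPM without dbcAMP, 7.15, 8.18 and 9.68 under dbcAMP and 33.1, 34.9 and 33.0 after withdrawal, with no overlap between stages. It fell 6.47-fold (log2 change -2.69, SE 0.13; edgeR adjusted p = 5.3e-08) and rose 4.06-fold on withdrawal (edgeR adjusted p = 9.84e-07). It remained 1.59-fold below undifferentiated cells (edgeR adjusted p = 0.00183). *Chmp1a* and *Chmp3* fell by 0.48 and 0.42 in log2 units (edgeR adjusted p = 0.00055 and 0.0171) and rose by 0.35 and 0.41 (edgeR adjusted p = 0.00536 and 0.0258). *Chmp3* lost the first call without undifferentiated replicate 2 or differentiated replicate 3 (-0.36 and -0.39). It lost the second without differentiated replicate 2 or 3 (0.42 and 0.38) or dedifferentiated replicate 2 or 3 (0.28 and 0.42).

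*Chmp5*, a late-acting subunit that binds the Vps4 cofactor, went the other way, from 114, 125 and 122 CPM without dbcAMP to 145, 148 and 149 under dbcAMP and 148, 140.1 and 149.6 after withdrawal. Its log2 change on differentiation was 0.23 (SE 0.07; edgeR adjusted p = 0.011). The same size of difference from undifferentiated cells after withdrawal (0.23; edgeR adjusted p = 0.0243) was lost without any 1 of the undifferentiated libraries (0.21, 0.24 and 0.22 for replicates 1, 2 and 3) or the dedifferentiated libraries (0.20, 0.23 and 0.22). That difference was also lost without a filter (0.21; edgeR adjusted p = 0.0683). *Chmp2a* and *Chmp6* were not called in any comparison, with log2 changes between -0.08 and 0.09 and standard errors of at most 0.08.

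Of the 3 tested members for Alix and Vps4, only *Vps4a* was called in any comparison. Over all tested genes 59.6%, 46.4% and 29.4% were called in the 3 comparisons. *Pdcd6ip*, which encodes Alix, measured 312 to 344 CPM without dbcAMP, 314 to 323 under dbcAMP and 308 to 362 after withdrawal and was not called. *Vps4b*, a gene of the disassembly ATPase, was not called either. Its paralogue *Vps4a* measured 53.8, 60.1 and 59.5 CPM without dbcAMP, 55.9, 61.3 and 58.0 under dbcAMP and 64.6, 75.7 and 74.5 after withdrawal. The dedifferentiated libraries lay above all others. On withdrawal it rose by 0.31 in log2 units (SE 0.08; edgeR adjusted p = 0.0115). Its difference from undifferentiated cells (0.26; edgeR adjusted p = 0.0371) was lost without undifferentiated replicate 1, 2 or 3 (0.23, 0.27 and 0.26), differentiated replicate 3 (0.26) and dedifferentiated replicate 2 or 3 (0.19 and 0.24). With the sequencing project as a covariate it was also lost (edgeR adjusted p = 0.0525), as it was with the size factors of DESeq2 (0.0637). Nor was it called without a filter (edgeR adjusted p = 0.0768) or within project 9987 (0.282). The DESeq2 Wald test did not call it either (adjusted p = 0.0722). In all, 5 of the 16 alternative fits called it. The log2 ratio of *Vps4a* to *Vps4b* was -1.05 ± 0.0139, -1.08 ± 0.0528 and -0.697 ± 0.152 at the 3 stages (SD, n = 3), and the dedifferentiated libraries did not overlap the others.

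Of the Rab GTPases, the switches that route endosomes, *Rab11a* of the recycling endosome rose. It measured 88.0, 85.6 and 92.3 CPM without dbcAMP, 129, 108 and 113 under dbcAMP and 128, 119 and 133 after withdrawal. Undifferentiated libraries lay below all others, and the later stages overlapped. The log2 change was 0.34 on differentiation (SE 0.09; edgeR adjusted p = 0.00714) and 0.47 between dedifferentiated and undifferentiated cells (edgeR adjusted p = 0.00266). In project 9987 alone the latter was 0.45 with no call (edgeR adjusted p = 0.0759). *Rab31*, which is tied to ESCRT-independent vesicle formation, measured 204, 218 and 211 CPM without dbcAMP, 140.4, 179 and 169.6 under dbcAMP and 137, 184 and 189 after withdrawal. It fell by 0.44 in log2 units (SE 0.12; edgeR adjusted p = 0.00954). Its difference after withdrawal (-0.36; edgeR adjusted p = 0.045) was lost without undifferentiated replicate 1, 2 or 3 (-0.37, -0.36 and -0.38), differentiated replicate 3 (-0.36) and dedifferentiated replicate 1 (-0.25). It was also lost with the sequencing project as a covariate (-0.36; edgeR adjusted p = 0.0543) and with library size alone (-0.31; edgeR adjusted p = 0.0907).

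*Rab35*, which docks endosomes at the plasma membrane and was described in vesicle release from oligodendroglia, fell by 0.28 in log2 units (SE 0.09; edgeR adjusted p = 0.0264). That call was lost without undifferentiated replicate 1 (-0.22) and without differentiated replicate 1 or 3 (-0.27 and -0.26). On withdrawal its log2 change of 0.20 was not called (edgeR adjusted p = 0.101), and it was without dedifferentiated replicate 1 (0.28; 0.0361). *Rab7a* of the late endosome measured 456 to 494 CPM without dbcAMP, 461 to 493 under dbcAMP and 470.0 to 493 after withdrawal and was not called in any comparison (edgeR adjusted p = 0.57, 0.856 and 0.776). The Rab27 arm, which docks secretory endosomes, had few reads. *Rab27a* measured 1.05 to 2.49, 2.28 to 2.84 and 1.59 to 3.01 CPM at the stages in order, with 13 to 46 counts a library and no call. *Rab27b* had 2 counts in undifferentiated replicate 3 and 0 in the other 8 libraries.

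*Sytl4*, an effector that binds Rab27, was measured from 16 to 72 counts a library. It had 2.42, 4.71 and 4.71 CPM without dbcAMP, 1.40, 2.24 and 0.987 under dbcAMP and 2.03, 1.99 and 1.88 after withdrawal. Undifferentiated libraries were the highest and did not overlap either later stage. It fell 2.68-fold on differentiation (log2 change -1.42, SE 0.36; edgeR adjusted p = 0.00613). Against undifferentiated cells the level after withdrawal missed the threshold (log2 change -1.04, SE 0.36; edgeR adjusted p = 0.0505), though it passed without undifferentiated replicate 1 (-1.29; 0.0202) and without differentiated replicate 2 or 3 (-1.04 in both; 0.0424 and 0.0468). It also passed with the replicate number as a block (-1.02; edgeR adjusted p = 0.0497), with the size factors of DESeq2 (-1.08; edgeR adjusted p = 0.045) and by the DESeq2 Wald test (-1.08; adjusted p = 0.0325). Its fall on differentiation was -1.03 and not called within project 9987 (edgeR adjusted p = 0.123).

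In the ceramide route *Smpd2*, a neutral sphingomyelinase, measured 18.4, 18.7 and 17.3 CPM without dbcAMP, 13.3, 15.9 and 13.3 under dbcAMP and 16.3, 18.7 and 22.5 after withdrawal. It fell by 0.42 in log2 units (SE 0.14; edgeR adjusted p = 0.0247) and rose by 0.45 on withdrawal (edgeR adjusted p = 0.0235). The first call was lost without undifferentiated replicate 1 (-0.39) and without differentiated replicate 1 or 3 (-0.39 and -0.37). The second was lost without differentiated replicate 1 or 3 (0.42 and 0.40) and without dedifferentiated replicate 3 (0.33). *Smpd3*, the neutral sphingomyelinase most often studied in exosome release, had 1, 0 and 1 counts without dbcAMP, 14, 1 and 10 under dbcAMP and 9, 6 and 11 after withdrawal. These counts were too low for the filter. Without a filter it was called higher in differentiated and in dedifferentiated than in undifferentiated cells (edgeR adjusted p = 0.0211 and 0.0233). It also passed the filter, and was called in both comparisons, in the fits without undifferentiated replicate 1, differentiated replicate 2 or 3, or dedifferentiated replicate 1 or 2. In the fits without undifferentiated replicate 2 or 3 it passed the filter but was not called.

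The syndecan-syntenin route, in which syntenin links syndecans to Alix and is driven by Arf6 and phospholipase D2, held large changes in opposite directions. *Sdc4*, a heparan sulphate proteoglycan of the cell surface, measured 152, 168 and 149.8 CPM without dbcAMP, 320.2, 308 and 352 under dbcAMP and 215, 241 and 233 after withdrawal, with no overlap between stages. It was 2.00-fold higher on differentiation (log2 change 1.00, SE 0.09; edgeR adjusted p = 2.94e-06) and fell 1.41-fold on withdrawal (edgeR adjusted p = 0.000809). It remained 1.42-fold above undifferentiated cells (log2 change 0.50; edgeR adjusted p = 0.00134). In project 9987 alone that log2 change was 0.45 and not called (edgeR adjusted p = 0.0535). *Pld2*, which encodes phospholipase D2, a source of phosphatidic acid, measured 65.8, 69.3 and 69.4 CPM without dbcAMP, 15.4, 17.7 and 19.3 under dbcAMP and 43.2, 32.1 and 37.8 after withdrawal, again with no overlap. It fell 4.06-fold (log2 change -2.02, SE 0.12; edgeR adjusted p = 2.08e-07), rose 2.18-fold on withdrawal (edgeR adjusted p = 3.5e-05) and remained 1.87-fold below undifferentiated cells (edgeR adjusted p = 0.000223).

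*Arf6*, the small GTPase that activates phospholipase D2, measured 80.5, 82.0 and 73.3 CPM without dbcAMP, 52.5, 63.7 and 62.9 under dbcAMP and 55.0, 60.9 and 69.2 after withdrawal. It fell by 0.46 in log2 units (SE 0.11; edgeR adjusted p = 0.00322) and was still lower by 0.40 after withdrawal (log2 change -0.40; edgeR adjusted p = 0.0167). *Sdcbp*, which encodes syntenin, was not called. It measured 369, 369 and 377 CPM without dbcAMP, 293, 318 and 356 under dbcAMP and 294, 400.2 and 426 after withdrawal, and the last group spread most. Its log2 changes were -0.27 and 0.22 (edgeR adjusted p = 0.0843 and 0.162). With the replicate number as a block the first was called (-0.27; edgeR adjusted p = 0.0489), as it was by the DESeq2 Wald test (-0.30; adjusted p = 0.0395). Without dedifferentiated replicate 1 both were called (-0.30 and 0.38; edgeR adjusted p = 0.00656 and 0.00545).

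Both flotillins, scaffold proteins of cholesterol-rich membrane domains, fell and came back. *Flot1* measured 189.8, 236 and 252 CPM without dbcAMP, 139.9, 162 and 162 under dbcAMP and 229, 281 and 245 after withdrawal. *Flot2* measured 105, 111 and 112, then 56.7, 72.9 and 78.6, then 119.5, 134 and 134 CPM. For both genes the differentiated libraries lay below all others. *Flot1* fell by 0.60 in log2 units and rose by 0.71 (SE 0.11 each; edgeR adjusted p = 0.00075 and 0.000425), and *Flot2* fell by 0.72 and rose by 0.91 (SE 0.11 each; edgeR adjusted p = 0.000182 and 6.48e-05). *Cav1*, the caveolar coat gene, had 1 to 15 counts in any library and was not tested. *Snap23*, a SNARE of fusion at the plasma membrane, measured 45.9, 38.6 and 47.0 CPM without dbcAMP, 37.1, 38.0 and 32.6 under dbcAMP and 41.5, 43.7 and 42.9 after withdrawal. It fell by 0.35 in log2 units (SE 0.10; edgeR adjusted p = 0.0124), a call lost without differentiated replicate 3 (-0.28; 0.0573). On withdrawal its log2 change of 0.26 was not called (edgeR adjusted p = 0.0561), and it was without undifferentiated replicate 2 (0.27; 0.0353).

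Other genes of the same routes were listed by function, giving 130 names, of which 120 were found and 106 tested. On differentiation 29 (27.4%) were called higher and 45 (42.5%) lower, against 31.7% and 27.9% of all tested genes. On withdrawal 33 (31.1%) were called higher and 15 (14.2%) lower, against 23.2% each, and the total of 45.3% was near the 46.4% of all genes. Between dedifferentiated and undifferentiated cells 15 (14.2%) were higher and 16 (15.1%) lower, against 16.1% and 13.3%. Their median log2 changes were -0.19, 0.14 and -0.02, beside 0.05, -0.01 and 0.02 over all tested genes. Of 16 further tetraspanins, 5 rose and 7 fell on differentiation, and of 14 further ESCRT genes 4 rose and 6 fell. Of 14 further genes of ceramide and sphingomyelin turnover, 7 rose and 2 fell, and of 9 genes of plasma membrane shedding 2 rose and 6 fell.

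*Tspan2*, *Sdc2* and *Sgms1* changed more on differentiation than any tested member. *Sdc2*, another syndecan, measured 152 ± 16.7 CPM without dbcAMP, 11.3 ± 2.36 under dbcAMP and 82.8 ± 7.02 after withdrawal (SD, n = 3), a log2 change of -3.81 and then of 2.88 (edgeR adjusted p = 9.55e-09, then 1.72e-07). *Sdc1* was lower in dedifferentiated cells, at 2.96 ± 0.741 CPM against 12.9 ± 4.76 in undifferentiated cells (SD, n = 3; log2 change -2.17; edgeR adjusted p = 0.000901). *Tspan2* measured 9.68 ± 2.12, 0.263 ± 0.0677 and 4.85 ± 0.753 CPM over the 3 stages (SD, n = 3), so its differentiated level lay near the floor. *Tspan11* measured 724 ± 32.1, 138 ± 5.91 and 383 ± 12.0 CPM (SD, n = 3).

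*Tspan17* and *Tspan15*, tetraspanins that bind the protease Adam10, were higher in dedifferentiated than in undifferentiated cells (log2 change 1.61 for *Tspan17*, 1.44 for *Tspan15*; edgeR adjusted p = 1.47e-05 and 0.00207). *Sgms1*, a sphingomyelin synthase, rose from 43.0 ± 6.06 to 300.6 ± 22.2 CPM on differentiation (SD, n = 3; log2 change 2.75; edgeR adjusted p = 9.55e-09). *Sphk1*, a sphingosine kinase, was higher in dedifferentiated than in undifferentiated cells (log2 change 1.43, SE 0.32; edgeR adjusted p = 0.00721). *Myrip*, which couples Rab27a to myosin, fell at both steps, from 17.7 ± 1.90 through 3.88 ± 0.788 to 2.16 ± 0.198 CPM (SD, n = 3; edgeR adjusted p = 2.63e-06 and 0.00925). *Anxa5*, an annexin that binds phosphatidylserine, rose on withdrawal by 1.84, and *Mylk*, the myosin light chain kinase, fell by 1.77 in log2 units (edgeR adjusted p = 1.18e-06 and 0.00394).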

How the data were processed

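The deposited mRNA table of the cells holds estimated counts, merged over genes from salmon by the authors, per the table's name. The submitters' processing notes name Salmon, STAR, HISAT2, Trim Galore and DESeq2 1.26.0 without roles; genome build and annotation are not given in the sources used here. Counts were rounded first, since 1.15% were not whole. Columns were matched to samples by library code and stage, and their replicate suffixes, which disagree with the titles, were not used. All 9 libraries entered an edgeR 4.0.16 quasi-likelihood fit (R 4.3.3) with filterByExpr at a minimum count of 10, TMM scaling and no covariate. P-values were adjusted by Benjamini-Hochberg over 10372 genes, and the SE is the log2 change divided by the square root of F. CPM is of column totals before TMM. Gene lengths were not used, so levels are not compared between genes. Members and lists were chosen with earlier results of these data known. All members could be named; every library is given for members whose 3-stage test was called with a log2 change of at least 1, and for others picked after their values were seen. Other pathway genes were named as the 5 largest called changes per comparison without overlap. Some marker genes are not reported here. *Cavin3* was matched by a synonym. Replicate 3 of each stage came from sequencing project 11026, replicates 1 and 2 from project 9987. The labels do not say what a shared replicate number stands for. Deviations from the stage means correlated by 0.23 to 0.30 between same-numbered undifferentiated and differentiated libraries, all 3 above 0.1. Between these and same-numbered dedifferentiated libraries they correlated by 0.03 to 0.21. The main fit did not pair libraries in any comparison, so its p-values leave such a pairing out. A fit with the replicate number as a block is given among the alternatives. The vesicle miRNA and lncRNA tables were not used here. Counting gene copies that share reads, and the strand setting, are not described in the sources used here.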

Additional observations from a re-analysis of the deposited data

How the results depend on the processing

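Of 50 calls over the members and the 3 comparisons, 25 held in all 16 alternatives (the replicate block, the sequencing project as covariate or project 9987 alone, DESeq2's size factors and Wald test, library size alone, no filter, and 9 fits without 1 library), and no called value changed sign. The 25 were 12 for differentiated against undifferentiated cells, 9 for withdrawal and 4 for dedifferentiated against undifferentiated cells, the last being *Cd9*, *Chmp4c*, *Arf6* and *Pld2*. The matching count over all tested genes was not made. Values called in neither fit changed sign 70 times, over 25 of 55 values. Within project 9987, with 2 libraries a stage, 12, 9 and 4 members were called in place of 23, 17 and 10, while the calls over all genes went from 59.6%, 46.4% and 29.4% to 42.0%, 25.1% and 12.4%; project 11026 has 1 library a stage and gives no fit. With 1 library left out, 18 to 25, 13 to 19 and 6 to 12 members were called, the 6 without undifferentiated replicate 2, and over all genes 53.1% to 61.1%, 37.3% to 49.3% and 21.4% to 29.1%. The median log2 change of the members ranged over the alternatives from -0.31 to -0.21, from 0.18 to 0.29 and from -0.08 to 0.02. Library size alone gave 20, 17 and 9 member calls, where 60.1%, 46.0% and 29.2% of all genes were called. It lost those of *Stam2*, *Rab35* and *Smpd2* on differentiation and that of *Rab31* for dedifferentiated against undifferentiated cells. The largest shift of the median of all genes by scaling was 0.06. The replicate block gave 24, 17 and 11 calls, where 61.0%, 48.5% and 31.4% of all genes were called. It added *Sdcbp* on differentiation (edgeR adjusted p = 0.0489) and *Sytl4* for dedifferentiated against undifferentiated cells (0.0497). It changed no other call of a member. Over the 9 libraries 8 correlated best with one of their own number, which is a hint from the data and not from the labels. For the gene ratios, within-number permutation cannot go below 0.25, and none of 135 recomputed differences moved by more than 1 SD. *Rab27b*, *Smpd3* and *Cav1*, with at most 15 counts in any library, could be fitted only without the filter or, for some, with libraries left out.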
